A study of Mus musculus with 6 samples.

Results

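The genes for the proteins of the cytosolic ribosome were followed in hematopoietic stem cells (HSCs), which renew themselves in the marrow and give rise to every blood cell type, from control mice and from mice supplemented long term with ferulic acid (FA), a plant phenolic acid. Members were the protein-coding genes whose symbols carry the Rpl, Rps, Rplp or Rpsa stem, without the Rps6k kinases and without symbols marked as pseudogenes, and 88 of the 27198 listed genes qualified. They comprised 43 large-subunit genes, 31 small-subunit genes, 3 genes of the P stalk, 10 paralogs or retrocopies of other members, and Rps19bp1, which encodes an Rps19-binding protein rather than a ribosomal protein and was kept because its symbol fits the rule. Of these, 87 passed the low-count filter and were tested, and the exception, Rpl39l, had 2 to 5 counts in each library.

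All mice were male wild-type C57BL/6 mice 8 to 10 weeks old, and HSCs were sorted as lineage-negative, Sca-1+, c-Kit+, CD34- and CD135- cells without irradiation of the donors. Ctrl mice received the solvent, and l-FA mice received 50 mg/kg FA by intraperitoneal injection every day for 30 days. There were 3 Ctrl libraries with 19287735 to 20380610 counts each and 3 l-FA libraries with 19505689 to 20376031 counts each. How many mice contributed to a library is not stated in the sources used here, so the spread between libraries may be technical in part, and n counts libraries. Levels are given as CPM (counts scaled to a common library size). Of the markers the sort selected for, Kit measured 1046 to 1082 CPM in Ctrl and 1146 to 1166 CPM in l-FA. Ly6a, which encodes Sca-1, measured 53.2, 32.7 and 49.2 CPM in Ctrl and 75.1, 78.5 and 76.8 CPM in l-FA. Both rose with l-FA, Kit by 0.12 log2 and Ly6a by 0.77 log2 (edgeR adjusted p = 0.00238 and 0.00887). Cd34 and Flt3, whose proteins the sort selected against, summed to 2081 to 2124 CPM in Ctrl and 2701 to 2813 CPM in l-FA. Each was called higher in l-FA, Cd34 by 0.23 log2 and Flt3 by 0.64 log2 (edgeR adjusted p = 0.000286 and 4.0e-06). Mean Flt3 was 759 CPM in Ctrl and 1183 CPM in l-FA.

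Ribosomal proteins wrap the ribosomal RNAs into a large and a small subunit, and each ribosome needs 1 copy of nearly all of them. Their mRNAs usually start with a run of pyrimidines, the 5′ terminal oligopyrimidine tract, through which growth signals acting on mTOR and Larp1 set how fast they are translated. In blood, loss of a single copy of genes such as RPS19, RPL5 or RPL11 causes Diamond-Blackfan anemia, and HSCs are known for keeping protein synthesis low. Ribosomal protein genes have also left many processed pseudogenes, intronless DNA copies of their mRNAs, which can take up sequencing reads.

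Some coding sequences show how closely the copies resemble the members. The first 90 coding bases of Rpl10 (chrX:73314418-73316741 in the deposited table, GRCm39 by the submitters' notes), of 2 processed pseudogenes on chromosomes 8 and 2, of Rps27 and of its relatives Rps27rt and Rps27l are given below from the GENCODE M21 transcripts of GRCm38, 5′ to 3′, with capitals at bases that differ from Rpl10 in the first set and from Rps27 in the second. They are shown because the largest fall among the members was that of Rpl10, and because Rps27 and Rps27l moved in opposite directions.
Rpl10: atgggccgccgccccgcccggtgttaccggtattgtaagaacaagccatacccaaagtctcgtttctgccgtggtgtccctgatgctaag
Rpl10-ps5: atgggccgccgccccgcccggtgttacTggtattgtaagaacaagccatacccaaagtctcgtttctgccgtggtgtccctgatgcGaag
Rpl10-ps1: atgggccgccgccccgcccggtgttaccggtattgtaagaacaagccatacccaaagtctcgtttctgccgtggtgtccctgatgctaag
Rps27: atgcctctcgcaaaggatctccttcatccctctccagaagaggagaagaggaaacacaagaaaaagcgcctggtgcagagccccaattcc
Rps27rt: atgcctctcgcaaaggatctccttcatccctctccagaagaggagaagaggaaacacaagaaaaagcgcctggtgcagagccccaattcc
Rps27l: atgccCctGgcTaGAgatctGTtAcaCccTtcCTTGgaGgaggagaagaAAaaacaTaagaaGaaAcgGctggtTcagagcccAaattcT
Rpl10-ps5 differed from Rpl10 at 2 of these bases and Rpl10-ps1 at 0, so a read from this stretch of Rpl10 mRNA matches the Rpl10-ps1 copy equally well. Rps27rt was identical to Rps27 here, whereas Rps27l differed at 24 bases (73.3% identical).

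Most ribosomal protein genes changed little with l-FA. At an adjusted p under 0.05 in edgeR's quasi-likelihood test, 26 of the 87 members (29.9%) passed, 6 of them higher and 20 lower in l-FA, against 50.5% of all 16520 genes tested. Among all genes 25.5% were called higher and 25% lower, so the members' 6.9% higher lay well under the background and their 23% lower lay close to it. The median log2 fold change was -0.05 over the members and 0.00 over all genes tested. The members were also measured more tightly than most genes, with a median SE of 0.06 log2 against 0.10 over all genes, and 50 of the 61 uncalled members had a 95% interval within 0.5 log2 of no change. The remaining 11 were less certain, and the largest interval bound among uncalled members was 0.89 log2. As RNA of sorted populations was measured in bulk, a change in the share of a cell type and a change in RNA per cell cannot be told apart.

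**Figure D1:**
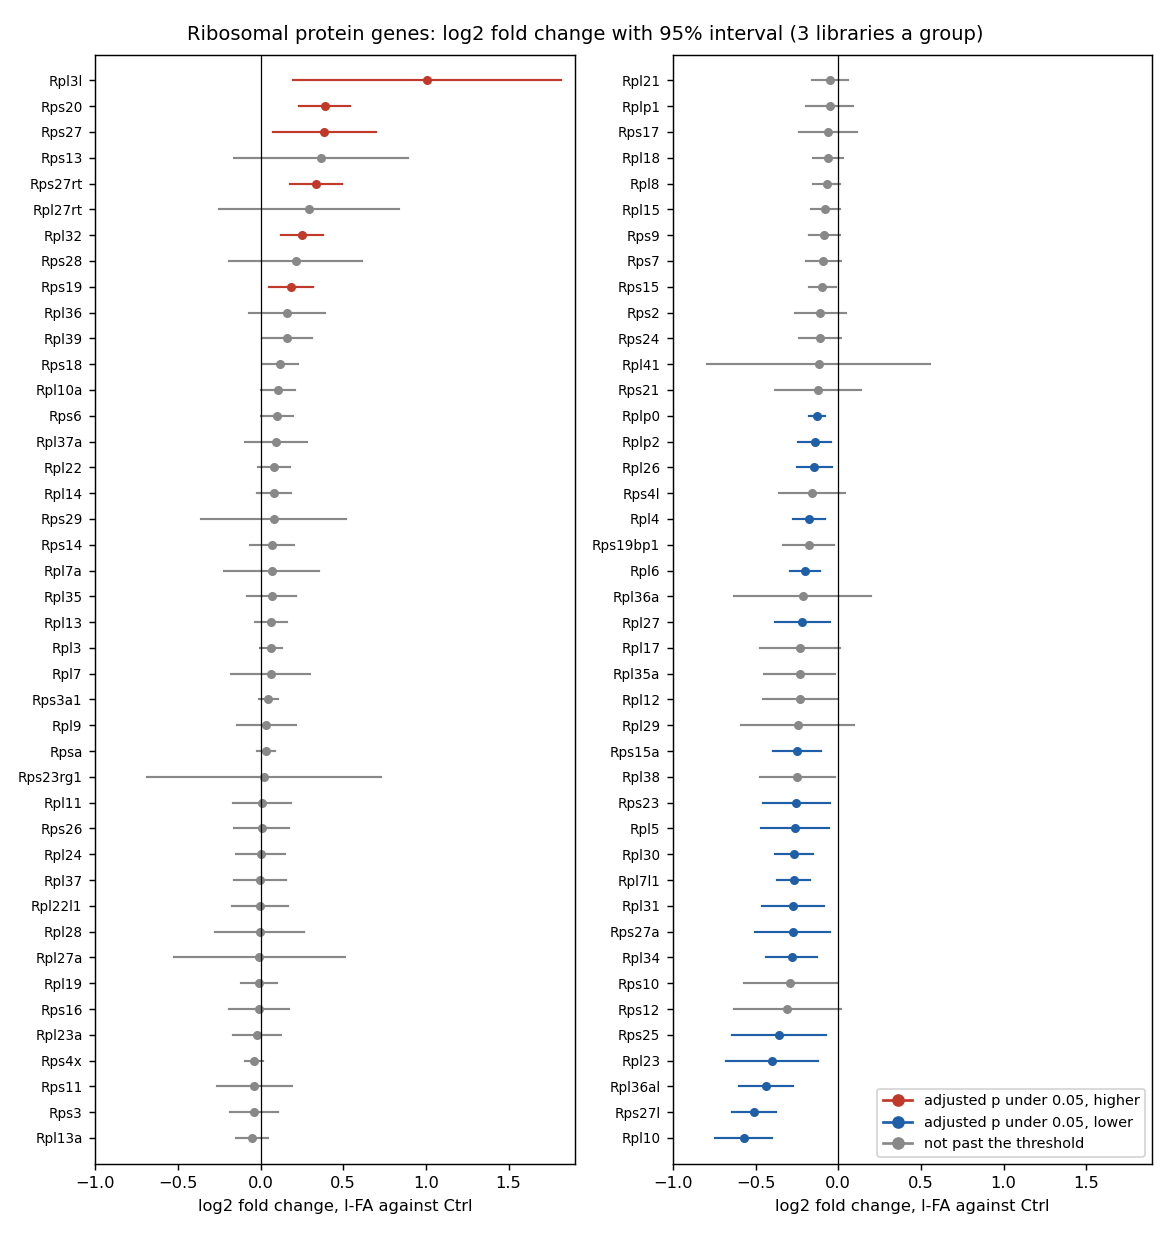
Log2 fold change (x axis, l-FA against Ctrl) of 84 tested members, in 2 panels from the largest rise (upper left) to the largest fall (lower right). Points are edgeR estimates and bars 95% intervals, with 6 members called higher in red, 19 called lower in blue and 59 not past the threshold in grey. All members shown but Rpl3l lie between -0.57 and 0.39.

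Non-overlap between the groups gave a similar picture. Every l-FA library lay above every Ctrl library for 11 members and below every Ctrl library for 29, and over all genes 30.4% and 29.9% were apart in these directions (60.3% together). Of the 26 called members, 25 had groups that did not overlap, the exception being Rpl5. Only Rpl3l, the muscle-enriched relative of Rpl3, passed a 2-fold limit, which 11.8% of all genes did (6.68% higher and 5.1% lower). It had 6, 5 and 11 counts in Ctrl and 17, 18 and 12 in l-FA, a log2 fold change of 1.01 (SE 0.34, edgeR adjusted p = 0.0448) that rested on these few counts.

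The rows of the members took a small share of the libraries, similar in both groups. They held 1.25%, 1.24% and 1.29% of all counts in Ctrl and 1.32%, 1.29% and 1.26% in l-FA, with means of 1.26% ± 0.03 and 1.29% ± 0.03 (SD, n = 3 each; two-sided exact permutation p = 0.3, where 0.1 is the smallest p that 3 libraries against 3 allow). The ranges overlapped. The share is of raw counts, whereas CPM were scaled by TMM factors of 0.968 to 0.979 in Ctrl and 1.03 in l-FA, which by construction lowers l-FA values relative to raw shares.

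The members shared a shift of their own between libraries of the same group. In the Ctrl 3 library 70 of 87 members lay above their group mean, with a median deviation of 0.06 log2, while in Ctrl 2 only 19 did, with a median deviation of -0.06. In l-FA the median deviations were 0.02, 0.00 and -0.03, and 60, 46 and 27 members lay above the mean. Over all genes 47.4% to 51.5% lay above the group mean in every library. Members of this set therefore did not vary independently between libraries, and counts of higher and lower members moved with the library left out: without Ctrl 3 there were 10 higher and 15 lower, and without l-FA 3 there were 7 higher and 10 lower.

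Large-subunit genes accounted for 1 rise and 10 falls among 43 tested (2.33% and 23.3%, against 25.5% and 25% of all genes), with a median log2 fold change of -0.05. The rise was that of Rpl32, a protein of the 60S subunit. Its CPM were 407, 391 and 443 in Ctrl and 516.5, 486 and 474 in l-FA. The groups did not overlap, and the log2 fold change was 0.25 (SE 0.05, edgeR adjusted p = 0.00806).

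The largest fall was that of Rpl10, a protein that joins the large subunit late in its maturation. Rpl10 measured 30.2, 35.4 and 31.6 CPM in Ctrl and 22.0, 21.3 and 21.9 CPM in l-FA. Every l-FA library lay below every Ctrl library, and the log2 fold change was -0.57 (SE 0.07, edgeR adjusted p = 0.000866), or 0.672-fold. Rpl23, a protein of the 60S subunit that can bind Mdm2, was lower with 21.7, 28.8 and 23.1 CPM in Ctrl and 18.8, 19.5 and 17.5 CPM in l-FA (log2 fold change -0.40, SE 0.12, edgeR adjusted p = 0.0267). Its Ctrl libraries were spread more widely than its l-FA libraries, and the call was lost when any 1 of the l-FA libraries was left out.

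Rpl34 measured 60.9, 54.1 and 63.1 CPM in Ctrl and 49.6, 47.5 and 49.4 CPM in l-FA, and Rpl31 measured 25.3, 25.0 and 28.9 CPM against 21.2, 23.0 and 21.2 CPM. Both are structural proteins of the large subunit, and in both the groups did not overlap, with log2 fold changes of -0.28 and -0.27 (edgeR adjusted p = 0.0102 and 0.0257). The call of Rpl31 was lost with the replicate number as a block and without Ctrl 3, l-FA 1 or l-FA 3. Rpl4, the member with the highest level, lines the wall of the exit tunnel for the growing protein. Its CPM were 1910, 1936 and 1779 in Ctrl and 1720, 1597 and 1656 in l-FA, a small fall of 0.18 on the log2 scale (SE 0.04, edgeR adjusted p = 0.0100). The other falls of the large subunit, those of Rpl5, Rpl6, Rpl26, Rpl27 and Rpl30, ranged from -0.27 to -0.15 log2.

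Rpl5 and Rpl11, which with 5S ribosomal RNA form the particle that can restrain Mdm2, differed in outcome. Rpl5 had 93.9, 79.8 and 98.2 CPM in Ctrl and 72.8, 81.2 and 72.8 CPM in l-FA. One l-FA library lay above the lowest Ctrl library, and Rpl5 just passed the threshold (log2 fold change -0.26, SE 0.09, edgeR adjusted p = 0.0428), keeping its call in 5 of 13 alternative fits and losing it, among others, without Ctrl 1, Ctrl 3, l-FA 1 or l-FA 3. Rpl11 had 15.4, 16.1 and 16.1 CPM in Ctrl and 14.9, 16.3 and 16.8 CPM in l-FA, with a log2 fold change of 0.01 (95% interval -0.16 to 0.19, edgeR adjusted p = 0.915). A change of the Rpl11 row by more than 0.19 log2 in either direction thus lies outside its interval. The rows of Rpl11 and Rpl5 held only 8.27% and 13.7% of the counts of their families, so these values are of the rows alone. Families, each a member with its copies, are described below. Whether the changes of Rpl5 and Rpl11 differ from each other was not tested.

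Some large-subunit genes could not be placed because Ctrl libraries disagreed. Rpl41, the smallest ribosomal protein, measured 97.1, 149 and 64.4 CPM in Ctrl and 106, 93.5 and 86.3 CPM in l-FA, so all l-FA libraries fell inside the Ctrl range. Rpl27a likewise ranged from 19.4 to 35.8 CPM in Ctrl and from 24.7 to 27.2 CPM in l-FA. These genes were picked out after their values were seen.

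All 3 genes of the P stalk, the arm of the large subunit that recruits elongation factors, had negative fold changes. Rplp0, which anchors the stalk, measured 1079, 1094 and 1119 CPM in Ctrl and 1008, 991 and 1012 CPM in l-FA. Its groups were apart, and with an SE of only 0.02 the log2 fold change of -0.13 was called (edgeR adjusted p = 0.00189). Rplp2 measured 90.5, 91.0 and 98.4 CPM in Ctrl and 84.1, 85.2 and 84.3 CPM in l-FA (log2 fold change -0.14, edgeR adjusted p = 0.0288). This call was lost with upper-quartile scaling, with the replicate number as a block and when any 1 l-FA library was left out. Rplp1, which pairs with Rplp2 on the stalk, was not called, at 85.9, 85.1 and 96.5 CPM against 88.8, 86.7 and 82.4 CPM (log2 fold change -0.05, 95% interval -0.20 to 0.09).

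Small-subunit genes gave 3 rises and 5 falls among 31 tested (9.68% and 16.1%, against 25.5% and 25% of all genes), with a median log2 fold change of -0.04. Rps20, which sits on the head of the subunit, measured 45.8, 44.4 and 49.9 CPM in Ctrl and 59.2, 65.3 and 58.9 CPM in l-FA. No library of one group reached the range of the other, and the log2 fold change was 0.39 (SE 0.06, edgeR adjusted p = 0.00279). Rps27 rose by the same amount from a lower level, with 13.1, 13.1 and 16.2 CPM in Ctrl and 20.9, 16.2 and 18.3 CPM in l-FA (log2 fold change 0.39, SE 0.13, edgeR adjusted p = 0.0437). Its groups came within a small fraction of 1 CPM of each other, and leaving out the Ctrl 1, Ctrl 2, l-FA 1 or l-FA 3 library ended the call, as did the replicate block and the absence of a low-count filter.

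Rps19, the gene most often mutated in Diamond-Blackfan anemia, measured 339.5, 319 and 356 CPM in Ctrl and 393, 401 and 360 CPM in l-FA. The groups were just apart and the log2 fold change was 0.18 (SE 0.05, edgeR adjusted p = 0.0297), a call that was lost with the replicate number as a block and without the Ctrl 1, Ctrl 2, l-FA 1 or l-FA 2 library. Rps6, the phosphorylated target of the S6 kinases, had 152, 150.2 and 163 CPM in Ctrl and 170.4, 162 and 167 CPM in l-FA and did not pass (log2 fold change 0.10, 95% interval 0.00 to 0.20, edgeR adjusted p = 0.0766).

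Among the falls of the small subunit was that of Rps25, which is needed for initiation on some viral internal ribosome entry sites and had 53.7, 71.6 and 53.4 CPM in Ctrl and 48.7, 45.5 and 45.1 CPM in l-FA. The Ctrl 2 library stood well above the others, and Rps25 passed narrowly (log2 fold change -0.36, SE 0.12, edgeR adjusted p = 0.0437). Rps27a, made as a fusion with ubiquitin, also passed narrowly, at 28.2, 24.8 and 29.9 CPM against 24.7, 20.9 and 22.8 CPM (log2 fold change -0.28, edgeR adjusted p = 0.0478). Rps25 lost its call when any 1 l-FA library was left out, and Rps27a lost it without Ctrl 1, Ctrl 3, l-FA 2 or l-FA 3. Rps15a and Rps23 also fell, both with a log2 fold change of -0.25, but Rps15a lost its call without l-FA 3, and Rps23 kept its call in only 3 of 13 alternative fits, losing it under DESeq2, the replicate block and the omission of any library but Ctrl 2, among others.

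**Figure D2:**
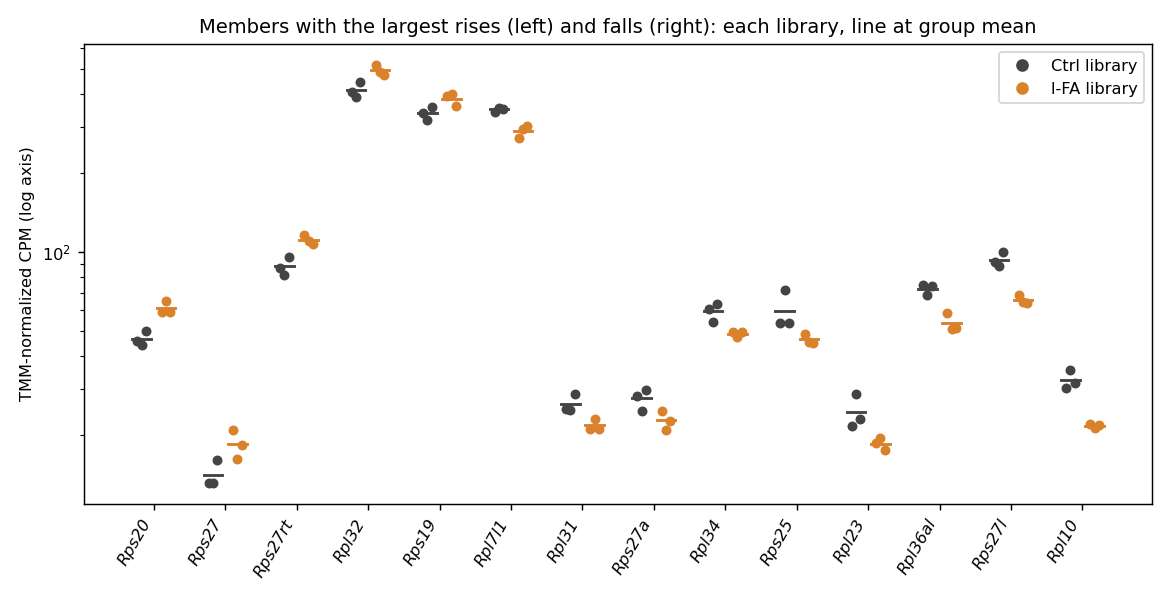
TMM-normalized CPM (log axis) of 5 rises and 9 falls among the largest in called members with a mean CPM of at least 5, each point 1 library and each line a group mean. From Rps20 to Rps19 the l-FA libraries lie higher, and from Rpl7l1 to Rpl10 they lie lower, with Rpl10 falling from 30.2 to 35.4 CPM in Ctrl to 21.3 to 22.0 CPM in l-FA.

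Calls differed in how they held when the processing was changed. Of the 26 called members, 13 kept their call and direction under each of 13 alternative fits, 3 higher (Rps20, Rpl32 and Rps27rt) and 10 lower (among them Rpl10, Rps27l, Rpl36al, Rpl34, Rpl7l1, Rpl30, Rpl6, Rpl4 and Rplp0). The alternatives were other scalings, other filters, DESeq2, a replicate block and each library left out, without the summing of copies described below, under which Rpl10 was not called. Rps15a kept its call in 12 of the 13 fits, Rpl26 and Rpl27 in 6 each, and Rpl3l in 5 of the 12 in which it had a value.

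Paralogs gave 2 rises, those of Rps27rt and Rpl3l, and 3 falls among 9 tested, so that 55.6% were called, near the 50.5% of all genes. Rps27l, a p53-responsive paralog of Rps27, measured 91.6, 88.7 and 99.6 CPM in Ctrl and 68.3, 64.3 and 63.9 CPM in l-FA, and its fall of 0.51 on the log2 scale (SE 0.05, edgeR adjusted p = 0.000456) was the second largest of all members. Rps27rt, the intronless retrocopy of Rps27, measured 86.8, 81.5 and 95.8 CPM in Ctrl and 116, 110.0 and 107 CPM in l-FA, so it rose with Rps27 (log2 fold change 0.34, SE 0.07, edgeR adjusted p = 0.00542). Per library, the log2 ratio of Rps27l to Rps27 counts was 2.80, 2.76 and 2.62 in Ctrl and 1.70, 1.99 and 1.80 in l-FA. The groups did not overlap, and the means of 2.73 ± 0.09 and 1.83 ± 0.14 (SD, n = 3 each) differed by -0.90 (exact permutation p = 0.1, the smallest possible, and 0.3 after adjustment over 6 pairs). Of the 50-base windows of the Rps27l coding sequence 27.1% occurred in another gene, but all those of Rps27 and of Rps27rt did. Only 13.2% of the counts of the Rps27 family, which includes Rps27rt, lay on the Rps27 row. The rises of Rps27 and Rps27rt can therefore not be told apart, though they are counted as 2 members.

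Rpl36al, the autosomal relative of the X-linked Rpl36a, measured 75.1, 68.3 and 73.9 CPM in Ctrl and 58.4, 50.8 and 51.5 CPM in l-FA (log2 fold change -0.44, SE 0.07, edgeR adjusted p = 0.00209). Rpl36a itself lay at 4.34 to 6.27 CPM in Ctrl and 4.36 to 5.33 CPM in l-FA and was not called (log2 fold change -0.22, 95% interval -0.63 to 0.20). Their log2 ratio changed by -0.24 (exact permutation p = 0.2, adjusted 0.3). All coding windows of both genes occurred in another gene. The Rpl36a row held only 10.2% of its family's counts, against 66.5% for Rpl36al, so these levels and this ratio are of the rows alone. With copies added by name, the Rpl36a family was called lower (log2 fold change -0.17, edgeR adjusted p = 0.0466). With copies added by shared window, the Rpl36a family was not called. Rpl7l1, which acts in large-subunit maturation, measured 342, 355 and 352 CPM in Ctrl and 272, 295 and 302 CPM in l-FA. Its fall of 0.27 on the log2 scale (SE 0.04, edgeR adjusted p = 0.00199) was not shared by Rpl7, which was not called (log2 fold change 0.06, 95% interval -0.18 to 0.30), and their ratio changed by -0.34 (exact permutation p = 0.1, adjusted 0.3).

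Rpl22l1, a paralog whose expression Rpl22 can repress, and Rpl22 were both uncalled, with log2 fold changes of 0.00 and 0.08, as were Rps4l and Rps4x at -0.16 and -0.04. Rps27rt against Rps27 changed by only -0.05 (exact permutation p = 0.7), and the 3 pairs with fewer than 10 counts in a library were not compared. With 3 libraries a group, none of the 6 ratios could reach 0.05.

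Levels were compared per length with the deposited FPKM, after the lengths behind them were recovered from counts and FPKM. For 87 of the 88 members that length equalled, within 2%, the sum of all distinct annotated exons of the gene in GENCODE M21, in which overlapping exons of different transcripts are each counted. It exceeded the merged exons in 83 members, at the median 1.56-fold and at most 3.54-fold, and it exceeded the whole gene in 38. Rpl10, with 11 annotated transcripts, was divided by 5156 bases, although its exons merge to 2053 bases and its longest transcript has 930. FPKM of genes with many annotated transcripts were therefore low by construction, but the order of members was nearly the same on CPM per kilobase of merged exons (Spearman's rho 0.98 across the 88 members).

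Levels ranged widely for proteins that ribosomes contain in nearly equal numbers. Rpl4 was highest with a mean of 674 FPKM over the 6 libraries, followed by Rps3a1, Rplp0, Rpl32 and Rps27rt at 544, 373.5, 365.5 and 267 FPKM. At the other end of the tested members, Rpl3l, Rps23rg1, Rps13, Rpl27rt and Rps12 had means of 0.341, 0.467, 0.888, 1.296 and 1.40 FPKM, and the untested Rpl39l had 0.124 FPKM. Rps13 and Rps12 are core proteins of the small subunit, and between the highest and the lowest of 77 core members the level differed 759-fold by FPKM and 318-fold per kilobase of merged exons. The low end, Rps13, held only 4.85% of the counts of its family on its own row, the rest lying on copies described below, so these folds are of the member rows alone. The highest 4 members held 36.8% to 38.4% of the members' summed FPKM in every library. Summed FPKM of the large subunit were 1.51, 1.53 and 1.51 times those of the small subunit in Ctrl and 1.49, 1.43 and 1.50 times in l-FA. By FPKM the ranges did not overlap, but per kilobase of merged exons they did, at 1.51 to 1.54 in Ctrl and 1.45 to 1.52 in l-FA.

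Levels were lower where more of the coding sequence occurred elsewhere in the genome. Over the 87 members with a coding sequence in GENCODE M21, the median share of 50-base windows found in another annotated gene was 89.5%. In 29 members every window occurred elsewhere, and in 4, among them Rpl3l, Rpl39l and Rps19bp1, none did. Median FPKM was 80.3 for 16 members with less than 50% of windows shared, 21.8 for 42 with 50% to less than 100%, and 11.5 for 29 with all windows shared. Across 86 tested members the rank correlation of FPKM with the shared percentage was -0.39, as a description over genes that share libraries and sequences. Fold changes showed no such order (rho 0.01).

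**Figure D3:**
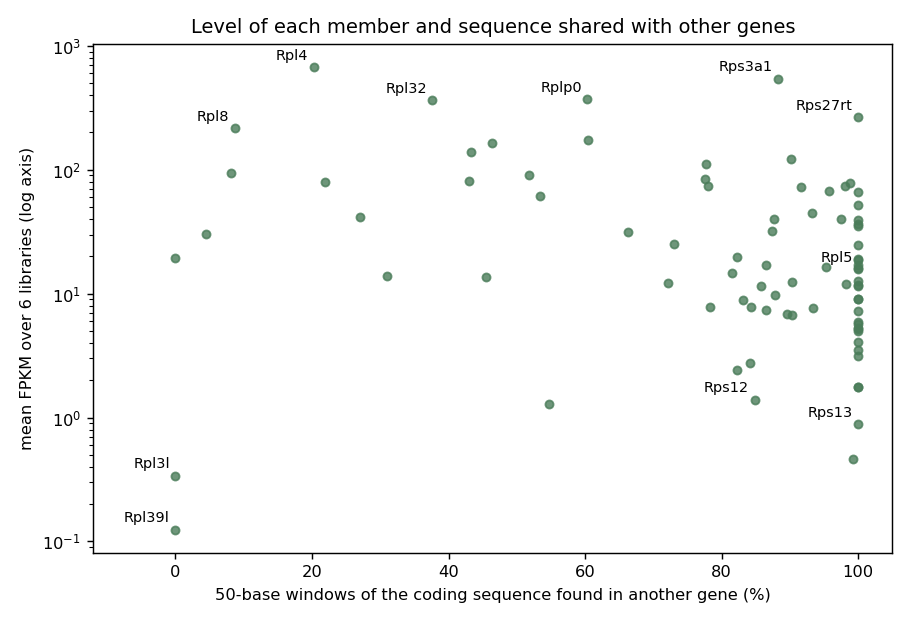
Mean FPKM over 6 libraries (log axis) against the percentage of 50-base coding windows that occur in another gene, 1 point for each of 84 members, with some named. Members with all windows shared have a median of 11.5 FPKM, and Rps27rt at 267 FPKM is the highest of them.

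Much of the ribosomal protein signal sat on copies. Among the listed genes, 988 pseudogenes and 3 retrocopies shared at least 1 such window with a member, and together they held 1.39% ± 0.07 of all counts in the Ctrl group and 1.49% ± 0.04 in the l-FA group (SD, n = 3 each; exact permutation p = 0.2), above the share of the members in each group. The retrocopies, Rps27rt, Rpl27rt and Rps23rg1, are members as well. For 51 of the 79 members with copies, the copies had more counts than the member. Of 460 copies that passed the filter, 25 were called higher and 20 lower, and their median log2 fold change was 0.01. Over all genes 50.5% were called, and over 1461 other pseudogenes 25.6% were, with a median of -0.10. How reads matching several genes were counted is not stated in the sources used here, so counts of a member and of its copies can be split between them, and a read on a copy may come from either.

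Rpl10 was the clearest case. Its own row held 579, 660 and 629 counts in Ctrl and 463, 427 and 438 in l-FA, whereas its copies held 7408, 6971 and 8082 counts in Ctrl and 8553, 7677 and 7467 in l-FA. Only 6.48% of the family's counts thus lay on Rpl10. Rpl10-ps5 and Rpl10-ps1, whose sequences are given above, carried most of the rest and had log2 fold changes of -0.01 each (edgeR adjusted p = 0.917 and 0.839). When members and copies were summed into 1 family and refitted, the Rpl10 family had a log2 fold change of -0.04 (SE 0.04, edgeR adjusted p = 0.476), so the largest fall among the members was not seen in the sum.

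Rpl5 went the other way. Its copies held 11121, 10917 and 11718 counts in Ctrl and 9842, 9293 and 9166 in l-FA, and the pseudogene Gm15500 alone measured 450.1, 458 and 459 CPM in Ctrl and 366, 362 and 359 CPM in l-FA. All l-FA values were below all Ctrl values. The summed Rpl5 family fell by 0.32 on the log2 scale (SE 0.02, edgeR adjusted p = 7.0e-05), more firmly than the member alone. Rpl13, a large-subunit protein, was not called on its own row (log2 fold change 0.07, edgeR adjusted p = 0.223), which held 5.39% of the family's counts, but its family was higher at 0.15 (SE 0.03, edgeR adjusted p = 0.00837).

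Over 84 families, 12 were called higher and 18 lower (35.7%), against 51.8% called, 26.2% higher and 25.6% lower, of all 16060 genes and families in that fit, and the median was -0.04. Of 20 members that fell alone, 14 also fell as families and 6 did not pass (Rpl10, Rpl23, Rpl26, Rps15a, Rps23 and Rps25). Of 61 uncalled members, 7 were higher as families (among them Rpl3, Rpl10a, Rpl13, Rpl36, Rps6 and Rps18) and 4 were lower (Rpl29, Rpl35a, Rpl38 and Rps2). No member was called in opposite directions by both fits. Rpl4, Rps27l and Rpl7l1, whose rows held 94.4%, 95.3% and 96.3% of their families' counts, had family values of -0.17, -0.51 and -0.27, close to their own. The summing of copies was chosen after the data were seen.

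**Figure D4:**
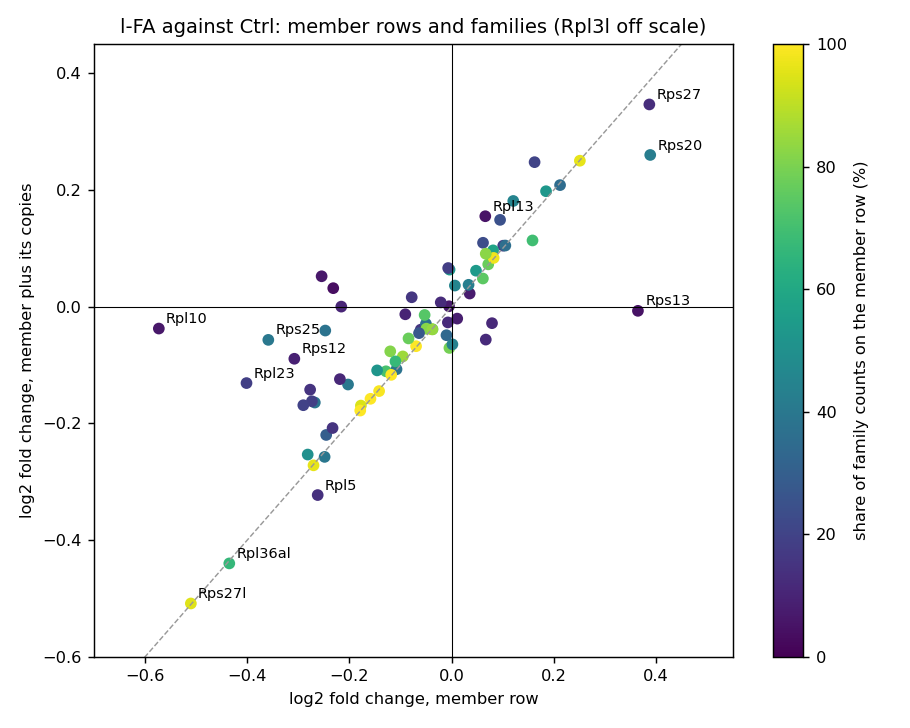
Log2 fold change (l-FA against Ctrl) of the members' own counts (x axis) and of the member summed with its copies (y axis), coloured by the share of family counts on the member, with a dashed line of equality. Rpl10 at -0.57 alone and -0.04 as a family lies farthest from the line, whereas Rps27l and Rpl36al lie on it. Rpl3l lies outside the plotted range.

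Start sites were examined for the pyrimidine tract. RefSeq promoter windows on GRCm38.p6 matched 66 members by symbol. In 31 of them (47.0%) a C followed by at least 4 pyrimidines began within 5 bases of an annotated start, against 21.2% of 27025 genes. A second, wider search took a C and at least 7 pyrimidines beginning from 20 bases before to 30 after the start. It found 60.6% of the members and 19.0% of all genes. Sequences of 30 bases, with 15 before the annotated start, are shown for 2 genes that rose, 2 that fell and Rps6, with the tract in capitals.
Rps27 (chr3:90213634-90213663, minus strand): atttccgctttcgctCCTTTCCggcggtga
Rps27rt (chr9:114982725-114982754, minus strand): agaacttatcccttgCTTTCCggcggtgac
Rplp2 (chr7:141447636-141447665, plus strand): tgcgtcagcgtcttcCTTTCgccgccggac
Rps15a (chr7:118116133-118116162, minus strand): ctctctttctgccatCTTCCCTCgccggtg
Rps6 (chr4:86857353-86857382, minus strand): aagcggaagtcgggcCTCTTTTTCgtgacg
The tract was present in genes of either direction. Among genes called higher, the first definition found it only in Rps27 and its retrocopy Rps27rt. All coding windows of both occurred in another gene, so these are not 2 separate cases. By the first definition, 2 of 31 tested members with a tract were called higher and 6 lower. Of 34 without one by that definition, 2 were higher and 11 lower, against 25.5% higher and 25% lower of all genes. The medians were -0.06 and -0.07 log2. The letters CGGAAG, on either strand and within a window of 300 bases, occurred in 66.7% of the 66 members and in 18.8% of all genes, and AAGATGGC in 9.1% and 3.2%. These matches describe the sequences and do not show that a factor binds there.

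The other genes of the translation pathway were given by lists, and differences between lists were not tested. Of 49 translation factors, 3 were called higher and 33 lower (73.5%, against the background of 50.5%), with a median log2 fold change of -0.21. Eif1a, which guides start codon scanning, measured 305.5, 286 and 282 CPM in Ctrl and 73.5, 66.1 and 78.1 CPM in l-FA. This was by far the largest fall of the list (log2 fold change -2.0, SE 0.07, edgeR adjusted p = 6.6e-06). Eif1ax, of the same list, changed far less, with means of 172 CPM in Ctrl and 163 CPM in l-FA (log2 fold change -0.08, edgeR adjusted p = 0.0448). Eif3b, a scaffold of initiation factor 3, and Eif2s1, the subunit phosphorylated under stress, fell by 0.46 and 0.55 on the log2 scale (edgeR adjusted p = 1.1e-05 and 2.3e-05). The 3 rises were those of Eef2, the translocase of elongation, at 0.16, Eif3h at 0.19 and Eif1 at 0.12.

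Ribosome assembly genes were mostly lower in l-FA. Of 74 listed, 56 were called lower and 1 higher (77%, against 50.5% of all genes, 25% lower and 25.5% higher), with a median log2 fold change of -0.35. Rrs1, which brings the 5S particle into the pre-ribosome, measured 196, 199 and 195 CPM in Ctrl and 114, 118 and 115 CPM in l-FA. The groups were far apart relative to their spread (log2 fold change -0.76, SE 0.03, edgeR adjusted p = 7.4e-06). Nop2, an rRNA methyltransferase, and Nolc1, a nucleolar phosphoprotein, fell by 0.52 and 0.54 on the log2 scale. The rise was that of Sbds, which helps release Eif6 from the new large subunit and is mutated in Shwachman-Diamond syndrome. Its CPM were 74.3, 68.4 and 79.0 in Ctrl and 95.5, 94.7 and 92.3 in l-FA (log2 fold change 0.35, SE 0.06, edgeR adjusted p = 0.00236).

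Regulators of growth and translation were split, with 12 of 35 tested called higher and 14 lower (74.3%, against 50.5% of all genes) and a median of 0.03. Mycn, a Myc family factor that drives ribosome production, rose from 88.3, 86.0 and 89.3 CPM to 143, 139 and 143 CPM (log2 fold change 0.69, SE 0.03, edgeR adjusted p = 1.9e-05). Myc itself had higher levels, with means of 609 CPM in Ctrl and 621 CPM in l-FA, and was not called (log2 fold change 0.03, edgeR adjusted p = 0.779). Tsc1, an inhibitor of mTORC1, and Rptor, a subunit of mTORC1, were both higher, by 1.31 and 0.41 on the log2 scale. Among the falls, Larp1, which binds the pyrimidine tract of these mRNAs, measured 140.2, 134 and 127 CPM in Ctrl and 98.0, 102 and 94.7 CPM in l-FA (log2 fold change -0.44, SE 0.05, edgeR adjusted p = 0.000487), and Hbs1l, a ribosome rescue factor, and Rps6ka1, an S6 kinase of the RSK family, fell by 0.49 and 0.32. Of the ribosome-bound proteins whose symbols lie outside the rule, Rack1 was lower, at 554, 552 and 562 CPM against 455, 466 and 455 CPM (log2 fold change -0.28, edgeR adjusted p = 9.8e-05), and Fau was not called (-0.05).

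**Figure D5:**
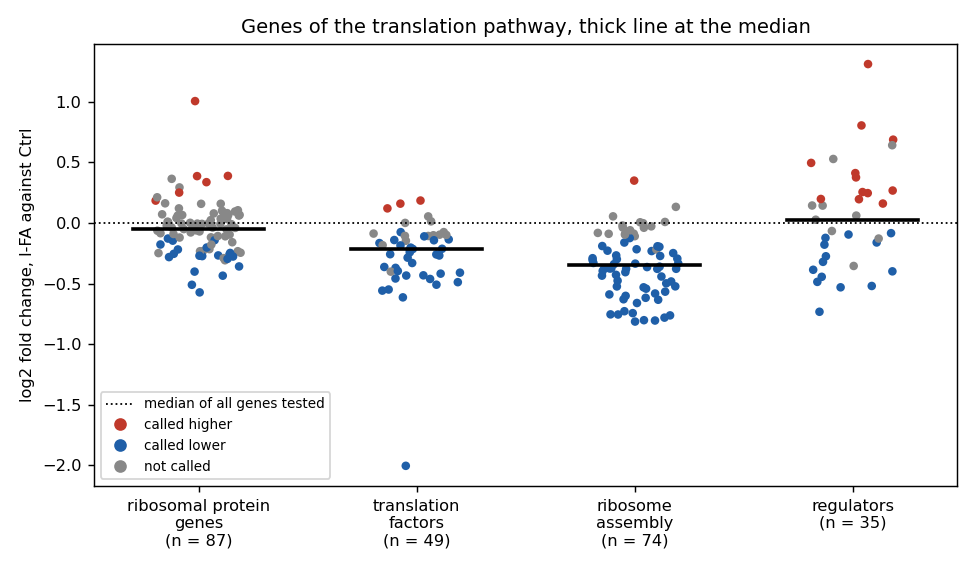
Log2 fold change (l-FA against Ctrl, y axis) of each tested gene in 4 lists, with called genes in red (higher) or blue (lower), uncalled genes in grey, a thick line at each list's median and a dotted line at the median of all genes. The medians are -0.05 for ribosomal protein genes, -0.21 for translation factors, -0.35 for ribosome assembly genes and 0.03 for regulators.

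Markers of other cell types also differed between the groups. Granulocyte and monocyte genes, such as Mpo and Elane, were called lower in 11 of 12 and higher in 1, and their summed CPM were 23069 to 23909 in Ctrl and 5761 to 6086 in l-FA. Of 10 HSC markers 7 were called higher and 1 lower, against 25.5% and 25% of all genes, with summed CPM of 1570 to 1609 in Ctrl and 1797 to 1815 in l-FA. T and NK cell markers summed to 602 to 624 CPM in Ctrl and 382 to 390 CPM in l-FA, a fall carried by Nkg7 (mean 556 CPM in Ctrl and 307 CPM in l-FA), whereas Lck rose (58.3 and 78.6 CPM, log2 fold change 0.43, edgeR adjusted p = 0.000375) and Cd3e, Cd3d and Klrd1 were near 0. Further, erythroid markers summed to 73.4 to 76.7 and 78.9 to 80.8 CPM. Megakaryocyte markers summed to 186 to 194 CPM in Ctrl and 264 to 273 CPM in l-FA, and B cell markers to 54.9 to 55.6 and 63.2 to 66.0 CPM. Vpreb1 and Cd3g, of the B cell and T cell lists, were not analysed here, and each of the other markers had a count in at least 1 library. The part of these cell types in the changes of the translation genes was not tested.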

How the data were processed

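RNA of sorted HSCs was amplified from poly(A) ends (SMART-Seq HT) and sequenced. For each library the authors deposited raw counts of every listed gene and FPKM made from those counts. The submitters' processing notes name GRCm39, HISAT2, SAMtools 1.3.1, StringTie and edgeR. Strand use and the treatment of multi-mapped reads are not given in the sources used here.

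Groups were taken from the labels. The test was that of edgeR 4.0.16 (R 4.3.3; TMM, filterByExpr, glmQLFit and glmQLFTest; 16520 of 27198 genes kept) with Benjamini-Hochberg adjustment over all genes tested and a threshold of 0.05. The design was fitted without covariates. SE was taken as the absolute log2 fold change over the root of F. The code was tested on simulated data. Counting error alone is only part of the error, since amplified reads carry no molecular identifiers. Shared sequence was any exact 50-base window of a GENCODE M21 (GRCm38) coding sequence found in another gene. The members and lists were chosen with earlier results of these data known. Genes named were the 10 largest rises and falls among called members with a mean CPM of at least 5, the 5 highest and 5 lowest tested members by FPKM, stalk, 5S particle, Rps6, Rps19, Rpl10 and paralog genes, and the 3 smallest p in each direction of the main other lists. Any other gene was named after its values were seen. Of the members, 50 overlap another listed gene, so their counts may not be theirs alone. Alternatives were upper-quartile and RLE scaling, DESeq2 1.42.0, TMM without the members, 2 other filters, a replicate block, each library left out and copies summed into members. Values of 3 members and of 1 other gene are not reported here by name or in the plots of single members.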

Additional observations from a re-analysis of the deposited data

How the results depend on the processing

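Counts of called members were the results most open to change. The 6 rises became 3 with the replicate block, 11 with copies added by name, 12 with copies added by shared window, and 3 to 10 with 1 library left out (3 without Ctrl 1 or Ctrl 2, and 10 without Ctrl 3). The 20 falls became 13 with upper-quartile scaling, 13 with the replicate block, and 10 to 23 with 1 library left out (10 without l-FA 3 and 12 without l-FA 1). Upper-quartile scaling gave 9 rises beside its 13 falls, so that 40.9% of calls were higher against 23.1%. It moved the median of all genes to 0.03, and the members' median less that of all genes was -0.05 as before. The single member past 2-fold, Rpl3l, was lost (0 members) with DESeq2, without the low-count filter, with at least 10 counts in every library and with the replicate block, and the count was 0 to 1 with 1 library left out. The log2 ratio of Rps27rt to Rps27, which changed by -0.05, ranged from -0.131 to 0.0136 with 1 library left out and turned positive without l-FA 1; the cause was not tested. Of single named members, 57 refits lost a call, 9 gained one and 0 reversed. The counts of called translation factors, assembly genes and regulators stayed within 1.5 times their main values in every setting run.

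The replicate numbers are shared by the groups but were not found to pair the libraries: same-numbered libraries correlated at 0.00, -0.01 and -0.08 in their deviations from group means over all genes, and at 0.02, -0.05 and 0.19 over the members. Members with under 100 counts in a library, 5 of 88, are limited by depth, and a fall in Rpl39l could not be detected at 2 to 5 counts.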
